A study of Homo sapiens with 3 samples.

Results

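Caspases are cysteine proteases that cut their substrates after aspartate residues and are made as inactive precursors. Here their mRNA was examined in HT-29, an epithelial cell line established from a human colon adenocarcinoma, after exposure to interferon-γ (IFN-γ), a cytokine made mainly by T and NK cells. The members were all probe sets on the array that the platform annotation gives to 1 gene symbol among the caspases numbered 1 to 10. This rule took 23 of the 19065 single-symbol probe sets, and they measured 8 of 11963 genes: CASP1, CASP2, CASP4, CASP5, CASP6, CASP8, CASP9 and CASP10. Other caspases were not analysed here.

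Inflammatory caspases (CASP1, CASP4 and CASP5) are known to be activated by sensors of infection or by bacterial lipopolysaccharide in the cytosol, and to cut gasdermin D, whose fragments form pores in the plasma membrane. Initiator caspases start apoptosis on activating platforms: CASP8 and CASP10 at death receptors, CASP9 on the apoptosome and CASP2 on the PIDDosome. Executioner caspases, CASP6 among them, cut structural and nuclear proteins downstream. All of this control acts on proteins, and the arrays measured mRNA alone.

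All 3 arrays measured HT-29 cultures kept for 24 h with IFN-γ at 200 U/ml, after plating at 50000 cells per cm2 and 24 h of growth. The series describes them as biological replicates, all of 1 cell line. No untreated cultures were analysed here, so every value is a level under treatment and the response to IFN-γ was not measured. The values are deposited MAS5 signals, a linear intensity per probe set, with a median of 137 to 144 per array. The number of arrays limits the precision.

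Before any caspase was read, the names of the probe sets were set against the values, because names and values appeared displaced. Probe sets of 1 gene should have related signals, yet with the names as deposited the log2 signals of 2 probe sets per gene correlated with r = 0.19 over 4310 genes. The order used here leaves the first 15 values without a name and continues with the block of 100 probe sets whose numbers start at 200000, the 493 of smaller number and the 21622 of larger number, each in file order, and it gave r = 0.60. With the block of smaller numbers sorted by number r was 0.59, and the best uniform displacement of all names gave 0.50 over 4080 genes. The 21622 were then split into 22 stretches of up to 1000 probe sets, and each stretch was moved by up to 5 rows either way. In all 22 stretches the agreement with other probe sets of the same genes was highest with no further move (r between 0.27 and 0.63, against at most 0.31 at any move of any stretch). The place of the 493 of smaller number, which hold 34449_at of CASP2, was not checked in stretches. These correlations run over genes, and genes are no independent replicates. The order was chosen from the data and every caspase value depends on it: under the names as deposited, 0 of the 23 probe sets passed limma's test described below, and 0 had an unadjusted p under 0.05. The background limit of that test also depends on the names. Under the names as deposited it was 3843, 3886 and 2966 in replicates 1, 2 and 3, against 204, 238 and 188 in the order used. These 0 counts therefore hold the change of the limit as well as that of the caspase values.

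The epithelial label was set against marker genes, and most epithelial markers but not the CDX factors were above background. At the level of genes, 10 of 12 colon epithelial markers passed the test described below (83.3%, against 39.1% of all genes), with EPCAM, an epithelial surface molecule, at a mean signal of 8942 ± 3370 (SD, n = 3) and KRT8, a keratin of simple epithelia, at 11967 ± 2674 (SD, n = 3). The 2 that did not pass were the intestinal transcription factors CDX1, with 16.9 ± 6.06, and CDX2, with 12.6 ± 3.57, both under the limit on every array (SD, n = 3 each). The junction protein CDH1 had 5232 ± 1127 and the brush border protein VIL1 had 589 ± 174 (SD, n = 3 each). Of 9 measured leukocyte markers 0 passed limma's test, 0 had an unadjusted p under 0.05 and 0 lay above the limit on any array, and the common leukocyte antigen PTPRC had 16.1 ± 14.6 (SD, n = 3). The summed signal of these 9 genes was 617, 729 and 721 in replicates 1, 2 and 3. Among 3 endothelial markers 0 passed limma's test, 0 had an unadjusted p under 0.05 and 0 lay above the limit on any array, with PECAM1 at 141 ± 36.3 (SD, n = 3). Among 5 fibroblast markers 1 passed, the collagen COL1A1 at 378 ± 175 (limma adjusted p = 0.0434), while COL1A2 had 77.9 ± 45.7 (SD, n = 3 each). COL1A1 lay above the limit on 2 of 3 arrays, and 1 of its 4 probe sets passed. The part of these cell types in any caspase signal was not tested, and in such bulk samples fewer cells of a type cannot be told apart from less RNA per cell.

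The caspase mRNAs fell into 3 groups by signal. CASP1, CASP4, CASP6 and CASP8 each had at least 1 probe set with a mean signal over 1000. CASP2, CASP9 and CASP10 had their brightest probe set between 331 and 442. CASP5 had 75.7 on its only probe set. Signals of different probe sets depend on their probes, so this is a description of where each stood and not a ranking of mRNA amounts. The question put to each probe set was whether it lay above a background limit by more than the spread between replicates allowed. For each array this limit was set at the 95th percentile of 112 probe sets, those of 71 genes chosen as typical of other tissues. Their absence from HT-29 cells was not tested. The limit came to 204, 238 and 188 in replicates 1, 2 and 3.

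**Figure D1:**
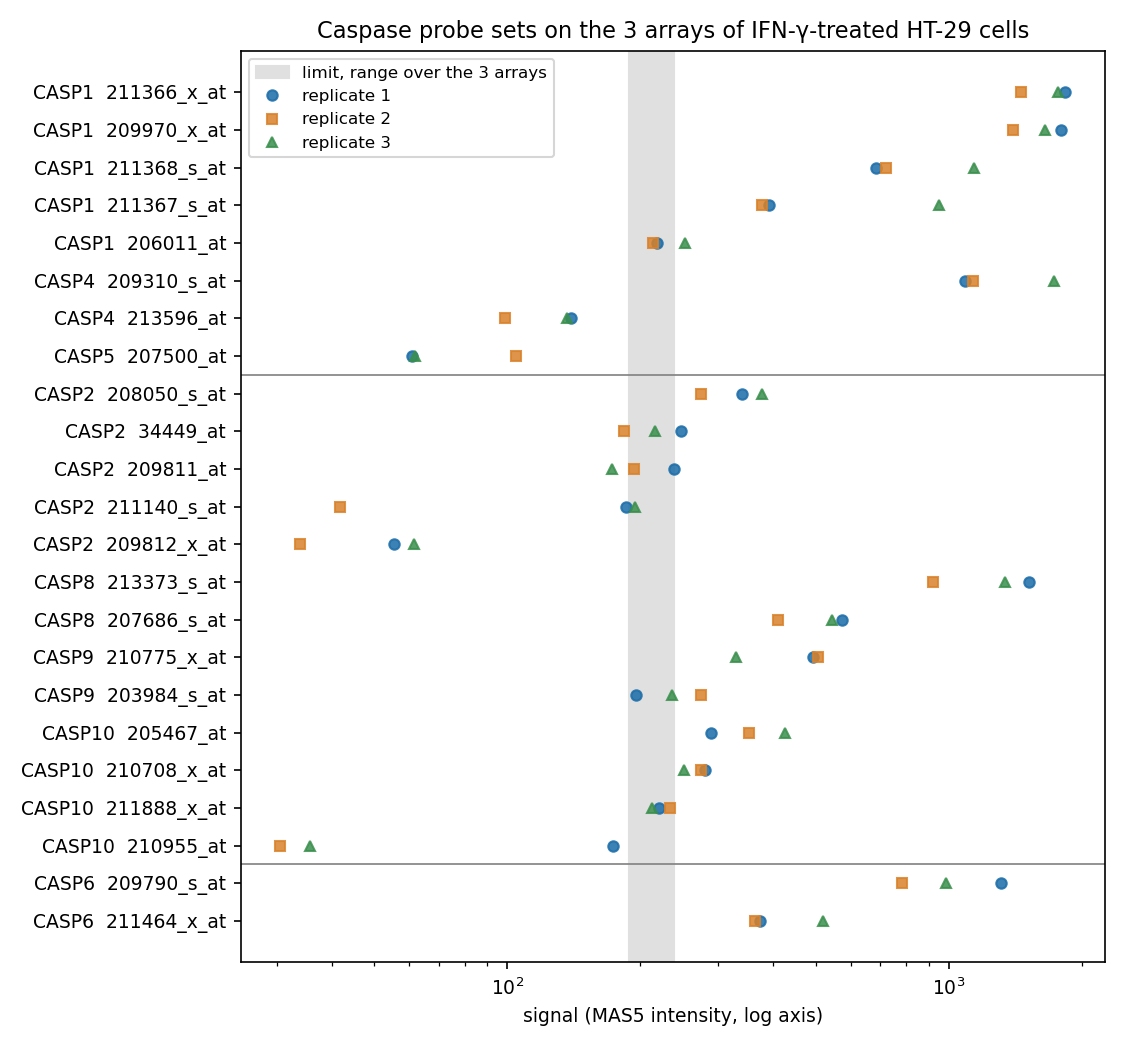
Signal of each of the 23 caspase probe sets (rows, grouped into inflammatory, initiator and executioner caspases) on the 3 arrays, on a log axis. Circles, squares and triangles are replicates 1, 2 and 3, and the grey band spans the background limits of 188 to 238. CASP5 lies left of the band on every array, and both CASP8 and both CASP6 probe sets lie right of it on every array.

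Of the 23 caspase probe sets, 12 (52.2%) lay above the limit by limma's one-sided test with Benjamini-Hochberg adjustment over 19065 probe sets at an adjusted p under 0.05, against 35.2% of all probe sets. Without a test, 13 of the 23 lay above the limit on all 3 arrays, against 38% of all probe sets, 6 on 1 or 2 arrays and 4 on none. The median of log2 signal minus log2 limit, called the margin here, was 0.65 over the caspase probe sets and -0.47 over all probe sets. The count was 14 with the limit at the 90th percentile of the same background probe sets, against 7615 of all 19065 probe sets. It was 6 at the 99th, against 3827, and 10 without replicate 3, against 6565.

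**Figure D2:**
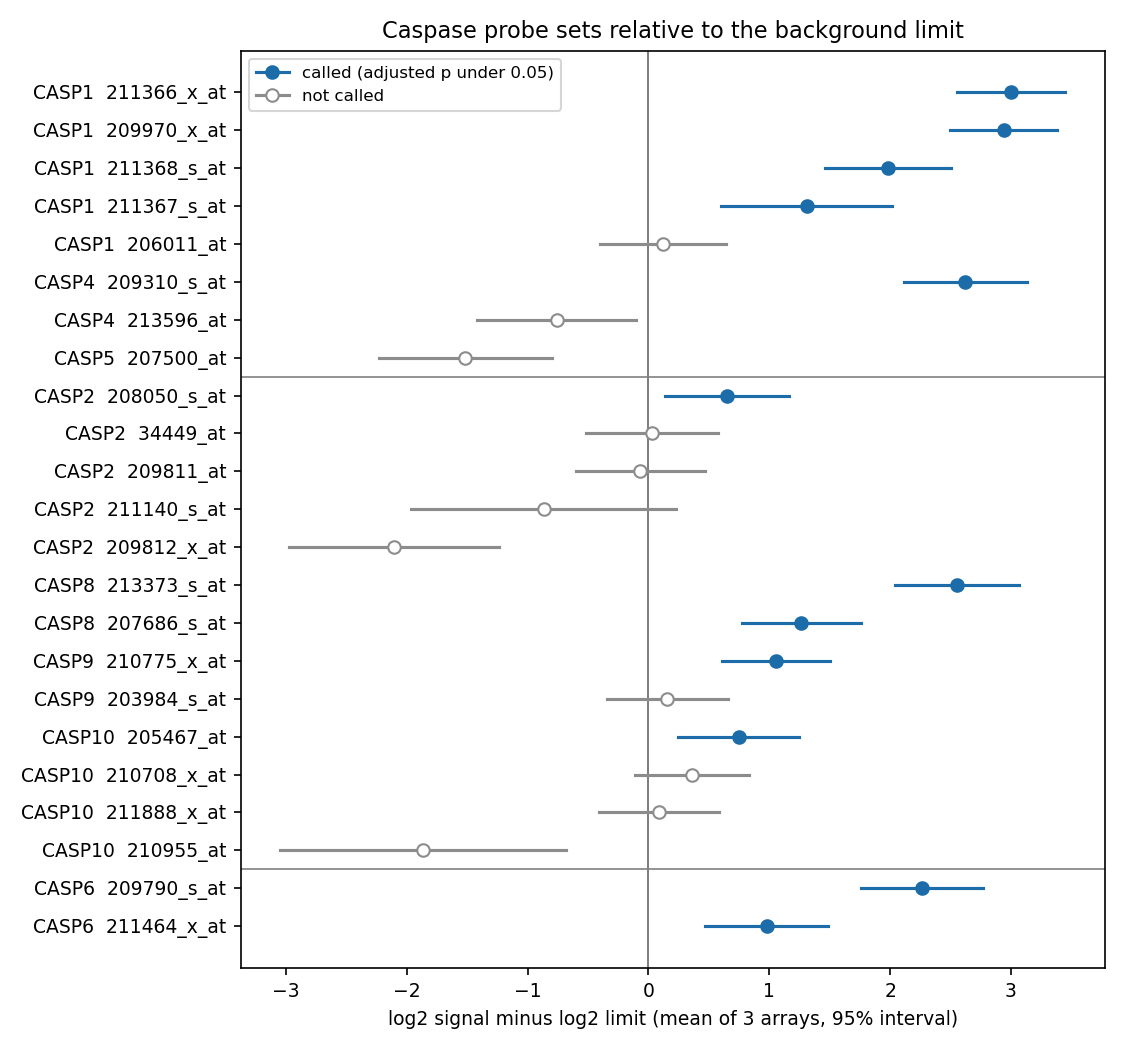
Margin of each caspase probe set over the background limit, as the mean of 3 arrays with its 95% interval from limma (x axis, log2 units); 0 is the limit. Filled points passed the test at an adjusted p under 0.05 and open points did not. The 12 that passed lie between 1.57-fold (CASP2) and 8.02-fold (CASP1) of the limit.

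Among inflammatory caspases, CASP1 mRNA was detected and CASP5 mRNA was not. CASP1, the protease known to mature interleukin-1β and interleukin-18 on inflammasomes, was measured by 5 probe sets, of which 4 passed. The brightest, 211366_x_at, had signals of 1838, 1456 and 1767 in replicates 1, 2 and 3, and 209970_x_at had 1793, 1394 and 1651. Both were lowest in replicate 2, and at 8.02-fold and 7.67-fold the limit (geometric mean of 3 arrays) they stood furthest above it among the caspase probe sets (limma adjusted p = 1.08e-06 and 1.20e-06). The suffix _x_at marks probes that can cross-hybridise to related sequences.

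The other 3 CASP1 probe sets were dimmer and followed another order of the arrays. Probe set 211368_s_at had 683, 722 and 1141 (margin 1.98, limma adjusted p = 4.45e-05), and 211367_s_at had 391, 376 and 948 (margin 1.31, adjusted p = 0.00412). Both were highest in replicate 3, whereas the _x_at pair was highest in replicate 1. The range of 211367_s_at across arrays, 1.33 log2 units, was the widest of the 12 that passed. The 1 CASP1 probe set without a suffix, 206011_at, had 218, 214 and 252. It lay above the limit on 2 of 3 arrays and did not pass (margin 0.12, 95% interval -0.40 to 0.64, limma adjusted p = 0.741). The probe sets of this gene therefore disagreed, and without _x_at and _s_at probe sets CASP1 as a gene had a margin of 0.36 (adjusted p = 0.183). That margin is again of 206011_at, over a lower limit recomputed for genes without such probe sets (196, 178 and 158 in replicates 1, 2 and 3).

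CASP4, a direct sensor of cytosolic lipopolysaccharide, showed the same split. Probe set 209310_s_at had 1086, 1137 and 1734, highest in replicate 3, with a margin of 2.62 (limma adjusted p = 5.54e-06). Probe set 213596_at, which has no suffix, had 140, 98.7 and 137. It lay under the limit on all 3 arrays, with a margin of -0.76 (95% interval -1.42 to -0.11). CASP5, the close relative of CASP4 that also binds lipopolysaccharide, was measured by 207500_at alone. Its signals were 60.7, 105 and 61.7, under the limit on every array, with a margin of -1.52 (95% interval -2.23 to -0.80). CASP5 did not pass under any alternative tried.

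CASP4, CASP5 and CASP1 are consecutive protein-coding genes on chromosome 11 in the RefSeq annotation, followed by CARD16 and CARD18, which are related to the CASP1 prodomain and were not analysed here. CASP4 and CASP5 thus stood next to each other with 1 probe set over the limit for CASP4 and 0 for CASP5. Their promoter windows are printed to show how alike the 2 neighbours are in sequence. Each window is 300 bases from RefSeq (build GRCh38.p14), from 250 before to 50 after the annotated start, 5′ to 3′ on the gene's strand, which is the minus strand for both. CASP4 is at chr11:104968525-104968824 and CASP5 at chr11:105023119-105023418. Capitals mark matches to 2 letter patterns, searched on both strands: TTCNNNGAA, the form of the gamma-activated site (GAS) known from interferon-γ-responsive genes, and GAAANNGAAA, the core of the interferon-stimulated response element (ISRE) that interferon regulatory factors are known to bind.
CASP4: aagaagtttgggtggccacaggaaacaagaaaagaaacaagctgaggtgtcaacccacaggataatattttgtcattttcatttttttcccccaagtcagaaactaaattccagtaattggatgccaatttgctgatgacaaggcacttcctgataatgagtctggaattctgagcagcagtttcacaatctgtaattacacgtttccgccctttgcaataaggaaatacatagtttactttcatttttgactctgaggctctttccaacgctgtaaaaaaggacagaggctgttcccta
CASP5: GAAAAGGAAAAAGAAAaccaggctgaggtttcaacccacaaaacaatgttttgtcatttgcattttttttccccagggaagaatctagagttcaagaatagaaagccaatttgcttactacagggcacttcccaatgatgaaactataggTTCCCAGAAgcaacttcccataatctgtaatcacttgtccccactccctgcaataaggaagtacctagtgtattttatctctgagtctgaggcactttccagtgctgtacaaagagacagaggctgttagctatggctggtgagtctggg

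The 2 windows matched in 222 of 325 columns of a global alignment, gaps included (68.3%), against 48.3% for CASP4 with CASP8 and 49.2% for CASP5 with CASP8. The CASP5 window held 1 GAS pattern, TTCCCAGAA from 100 to 92 bases before the start. It also held 2 overlapping ISRE patterns, GAAAAGGAAA from 250 to 241 and GAAAAAGAAA from 244 to 235 bases before the start. The CASP4 window held neither pattern. Of all 35116 windows in the table, 7.66% held the GAS pattern, 3.57% the ISRE pattern and 0.439% both. A match is a string of letters and not a measured binding site, and without untreated cells no response of either gene was measured.

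Initiator caspases were all represented above the limit by at least 1 probe set. CASP8, which starts apoptosis at death receptors and is also known to restrain necroptosis, passed on both of its probe sets. Probe set 213373_s_at had 1515, 921 and 1338, and 207686_s_at had 573, 409 and 543. Both were highest in replicate 1 and lowest in replicate 2, and every array lay above its limit. Their margins were 2.56 (95% interval 2.04 to 3.07) and 1.27 (0.78 to 1.76), with limma adjusted p = 7.11e-06 and 0.000564.

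CASP10, the relative of CASP8 that is also recruited to death receptors, was much nearer the limit. Of its 4 probe sets 1 passed: 205467_at had 289, 352 and 425, with a margin of 0.75 (limma adjusted p = 0.0129). This call rested on replicate 3, since the adjusted p was 0.0693 without it. Probe set 210708_x_at had 281, 275 and 251, above the limit on all 3 arrays, but its margin of 0.36 did not pass (adjusted p = 0.158). It passed with the limit at the 90th percentile (margin 0.74, adjusted p = 0.0111). Probe set 211888_x_at had 221, 234 and 213, a margin of 0.09 (adjusted p = 0.83). The fourth, 210955_at, had 173, 30.5 and 35.7, all under the limit, and its range of 2.51 log2 units was the widest of the 23.

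In the RefSeq annotation CASP10 and CASP8 follow CFLAR on chromosome 2, which places a caspase-like inhibitor of death receptor signalling beside both initiators. RefSeq gives 3 promoter windows for CASP8, and the first of them, at chr2:201233213-201233512 on the plus strand, is printed because it held both patterns. Capitals mark the GAS pattern TTCCAAGAA, from 200 to 192 bases before the start, and TTTCTGTTTC, the ISRE pattern on the opposite strand, which begins 3 bases before the start and ends 7 bases into the transcript. The other 2 CASP8 windows held neither.
CASP8: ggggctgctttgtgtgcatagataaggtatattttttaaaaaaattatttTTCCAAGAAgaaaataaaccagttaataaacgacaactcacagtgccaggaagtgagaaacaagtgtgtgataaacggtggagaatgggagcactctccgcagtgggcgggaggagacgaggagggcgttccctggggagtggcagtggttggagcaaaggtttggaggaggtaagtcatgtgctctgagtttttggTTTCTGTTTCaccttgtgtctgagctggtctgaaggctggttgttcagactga

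Windows were given for 6 of the 8 caspases, 10 windows in all, and not for CASP1 and CASP10. The patterns were found in the windows printed for CASP5 and CASP8 alone. They appeared in a caspase whose mRNA passed the test and in one whose mRNA did not. Content of CpG, the dinucleotide whose density marks many housekeeping promoters, also varied: the windows had 0 CpG in CASP5, 3 in CASP4, 5 or 6 in CASP8, 28 in CASP6, 30 and 36 in CASP9, and 35 and 4 in the 2 windows of CASP2, around a median of 14 over all windows. CASP4, CASP6 and CASP8, which passed with margins over 2, had windows on both sides of that median. Whether the patterns or the CpG content bear on the mRNA level was not tested.

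CASP9, the initiator that the apoptosome activates after cytochrome c leaves mitochondria, had 1 of 2 probe sets above the limit. Probe set 210775_x_at had 492, 504 and 329, above the limit on all 3 arrays and lowest in replicate 3 (margin 1.05, limma adjusted p = 0.000985). Probe set 203984_s_at had 196, 275 and 236 and lay above the limit on 2 of 3 arrays. Its margin of 0.16 (95% interval -0.35 to 0.66) did not pass (adjusted p = 0.609), but it passed at the 90th percentile limit (margin 0.54, adjusted p = 0.0468).

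CASP2, known for its activation after DNA damage and mitotic errors, had most of its probe sets at or under the limit. Of 5 probe sets 1 passed: 208050_s_at had 340, 275 and 377, with a margin of 0.65 (limma adjusted p = 0.0283). That call was lost without replicate 1 (adjusted p = 0.168), without replicate 3 (0.128) and without the variance trend (0.0714). It was also lost with the limit at the 99th percentile (margin -0.50). Both 34449_at, with 247, 184 and 216, and 209811_at, with 239, 194 and 172, scattered around the limit with margins of 0.03 and -0.07. The remaining 2 were low. Probe set 209812_x_at had 55.3, 33.9 and 61.5, under the limit on all arrays (margin -2.10). Probe set 211140_s_at had 185, 41.8 and 195, a range of 2.22 log2 units with replicate 2 far below the other arrays (margin -0.87).

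CASP6, an executioner caspase known to cut nuclear lamins, passed on both probe sets. Probe set 209790_s_at had 1315, 782 and 987 and lay 2.26 log2 units over the limit (95% interval 1.76 to 2.77, limma adjusted p = 1.38e-05). Probe set 211464_x_at had 373, 363 and 519, with a margin of 0.98 (95% interval 0.47 to 1.49, adjusted p = 0.00332). Both were lowest in replicate 2 and above the limit on every array, and they differed in which array was highest.

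The calls differed with the type of probe set. Of the 16 caspase probe sets with an _x_at or _s_at suffix, where _s_at marks probes shared by several transcripts, 11 passed. Of the 7 without a suffix 1 passed, the CASP10 probe set 205467_at. Over all single-symbol probe sets, 43.2% of the suffixed and 28.2% of the others passed. CASP6, CASP8 and CASP9 were measured by suffixed probe sets alone. Some but not all probe sets passed in 5 of the 7 caspase genes that had several, and in 1359 of 4310 such genes on the array (31.5%). CASP6 and CASP8 were the 2 whose probe sets all passed.

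Across arrays, the SD of log2 signal had a median of 0.28 for the 23 caspase probe sets and 0.39 for all. Among those that passed it was 0.32 over 12 caspase probe sets and 0.29 over all 6720. A range over 1 log2 unit between the highest and the lowest array was found in 3 caspase probe sets, against 35.6% of all probe sets and 14.7% of all that passed. These were 211367_s_at of CASP1, 211140_s_at of CASP2 and 210955_at of CASP10. Replicate 2 was the lowest array for 14 of the 23 (60.9%), against 31.2% of all probe sets, and for 8 of the 12 that passed, against 37.6% of all that passed. The limit was also highest in replicate 2.

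**Figure D3:**
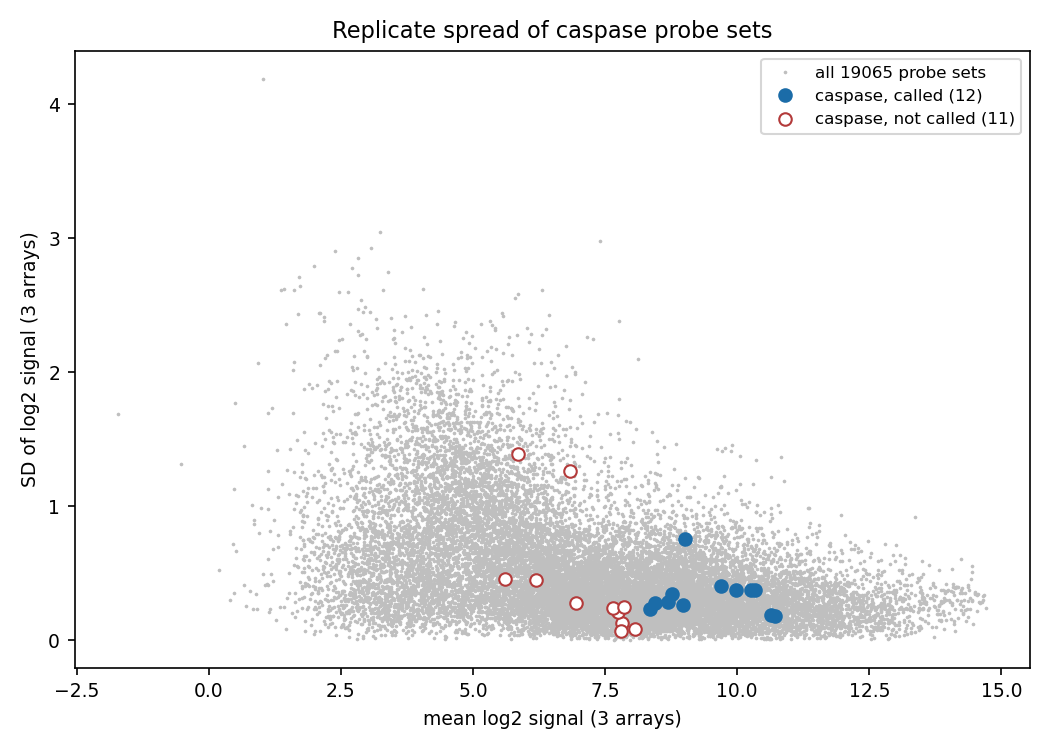
Standard deviation of log2 signal over the 3 arrays (y axis) against mean log2 signal (x axis). Grey dots are all 19065 single-symbol probe sets, filled blue circles the 12 caspase probe sets that passed the test and open red circles the 11 that did not. The 2 open circles with an SD over 1 are 211140_s_at of CASP2 and 210955_at of CASP10.

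Taken as genes, each read from whichever of its probe sets was brightest by mean log2 signal, 6 of 8 caspases passed, against 39.1% of 11963 genes. The limit, taken the same way from the 71 background genes, stood at signals of 254 (replicate 1), 248 (replicate 2) and 189.6 (replicate 3), and 2 of those 71 genes passed themselves. Reading the brightest gives genes with more probe sets more chances to pass. The 8 caspases had 23 probe sets, against 19065 for the 11963 genes and 112 for the 71 background genes. CASP1 had a margin of 2.87 at this level, CASP4 2.49, CASP8 2.43, CASP6 2.13, CASP9 0.92 and CASP10 0.62. CASP10 did not pass without replicate 3 (margin 0.34, limma adjusted p = 0.18), with quantile normalization (adjusted p = 0.0516), without the variance trend (0.0923) or with the limit at the 99th percentile. CASP2 missed the threshold (margin 0.52, limma adjusted p = 0.0601) although all 3 arrays lay above the limit, and it passed without replicate 2 (margin 0.71, adjusted p = 0.0268), at the 90th percentile limit (0.00391), with the dimmest probe sets left out (0.0341) and under uniform displacement of the names (0.0387). CASP5 had a margin of -1.64.

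Genes of proteins that activate caspases had mRNA above the limit in part. Of 15 measured adaptors and platform genes 5 passed (33.3%, against 39.1% of all genes), with a median margin of -0.46 against -0.25 over all genes. FADD, the adaptor that brings CASP8 to death receptors, had 1425, 1745 and 1543 (margin 2.77, limma adjusted p = 1.36e-08). PYCARD, also called ASC, which links inflammasome sensors to CASP1, had 1094, 1348 and 763 (margin 2.18, adjusted p = 1.17e-07). CYCS, cytochrome c, had 10505, 9883 and 14054, while APAF1, the apoptosome scaffold that it binds, had 193, 213 and 111 and lay under the limit (margin -0.46). NOD1, a sensor of bacterial peptidoglycan, passed narrowly at 368, 328 and 289 (margin 0.51, adjusted p = 0.0449). The inflammasome sensors in the list, NLRP1, NLRP3, AIM2 and MEFV, did not pass. The list count fell to 4 when any 1 replicate was left out.

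Of 10 measured genes listed as caspase inhibitors and decoys 4 passed (40.0%, against 39.1% of all genes). Not all of them act mainly as inhibitors. CFLAR, the catalytically inactive relative of CASP8 that blocks it at death receptors, had 2235, 1976 and 1712 (margin 3.10, limma adjusted p = 3.90e-09), though 4 of its 11 probe sets passed. BIRC2, a ubiquitin ligase of the IAP family, had 2166, 1201 and 2172 (margin 2.96). BIRC5, the survivin gene, which acts mainly in mitosis, had 1256, 1762 and 1278 (margin 2.63). XIAP, the IAP known to bind and block caspases directly, had 240, 184 and 328 and did not pass (margin 0.09, adjusted p = 0.822). CARD8, a CARD-containing protein that can form a CASP1-activating inflammasome, had 186, 128 and 196 (margin -0.45), and NAIP, whose protein senses bacterial flagellin, had 7.15, 8.31 and 5.28.

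Among 4 IAP antagonists 1 passed (25.0%, against 39.1% of all genes). The count was 2 without replicate 2, and 3 at the 90th percentile limit or with the median over the probe sets of a gene. DIABLO, also called SMAC, a mitochondrial protein that displaces IAPs from caspases, had 2276, 2190 and 2284, nearly equal on the 3 arrays (margin 3.30, limma adjusted p = 3.59e-09). HTRA2, a mitochondrial protease with a similar motif, had 230, 511 and 199, with replicate 2 well above the other arrays (margin 0.32, adjusted p = 0.292).

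Substrates of caspases were detected for 13 of 20 measured genes (65.0%, against 39.1% of all genes), with a median margin of 1.28 against -0.25. The list holds abundant structural genes, and no test of it as a set was made. BID, which CASP8 cuts to carry the death signal to mitochondria, had 884, 1179 and 1579 (margin 2.37, limma adjusted p = 4.06e-07). PARP1, a DNA repair enzyme and classic apoptotic substrate, had 1437, 1561 and 1305 (margin 2.64). DFFA, the inhibitor of the apoptotic nuclease, had 680, 627 and 550 (margin 1.43), and LMNB1, a nuclear lamin, had 1419, 963 and 1478 (margin 2.47). KRT18, an epithelial keratin cut during apoptosis, had 20577, 24816 and 30067.

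The substrates of CASP1 divided. GSDMD, the pore-forming gasdermin cut by CASP1, CASP4 and CASP5, passed with 344, 590 and 360 (margin 0.87, limma adjusted p = 0.0027). The cytokine precursors did not: IL1B had 183, 156 and 109 (margin -0.65) and IL18 had 52.7, 22.8 and 45.2 (margin -2.60), all under the limit on each array. Each of IL18 and GSDMD was read from 1 probe set.

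Death receptors and their ligands were detected for 4 of 7 measured genes (57.1%, against 39.1% of all genes). FAS, a death receptor that recruits FADD and CASP8, had 1424, 1164 and 1148 and passed on 4 of its 4 probe sets (margin 2.44, limma adjusted p = 3.46e-08). TNFRSF10B, a receptor of the ligand TRAIL, had 556, 346 and 548 (margin 1.05, adjusted p = 0.000876) and passed on 2 of its 3 probe sets. TNFSF10, the gene of the ligand TRAIL, had 2386, 2173 and 2611 (margin 3.38, limma adjusted p = 4.16e-09) and passed on 3 of its 3 probe sets. TNFRSF1A also passed (margin 2.52, adjusted p = 6.64e-08). FASLG (margin -1.17), TNF (-1.83) and TNFRSF25 (0.21) did not pass.

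**Figure D4:**
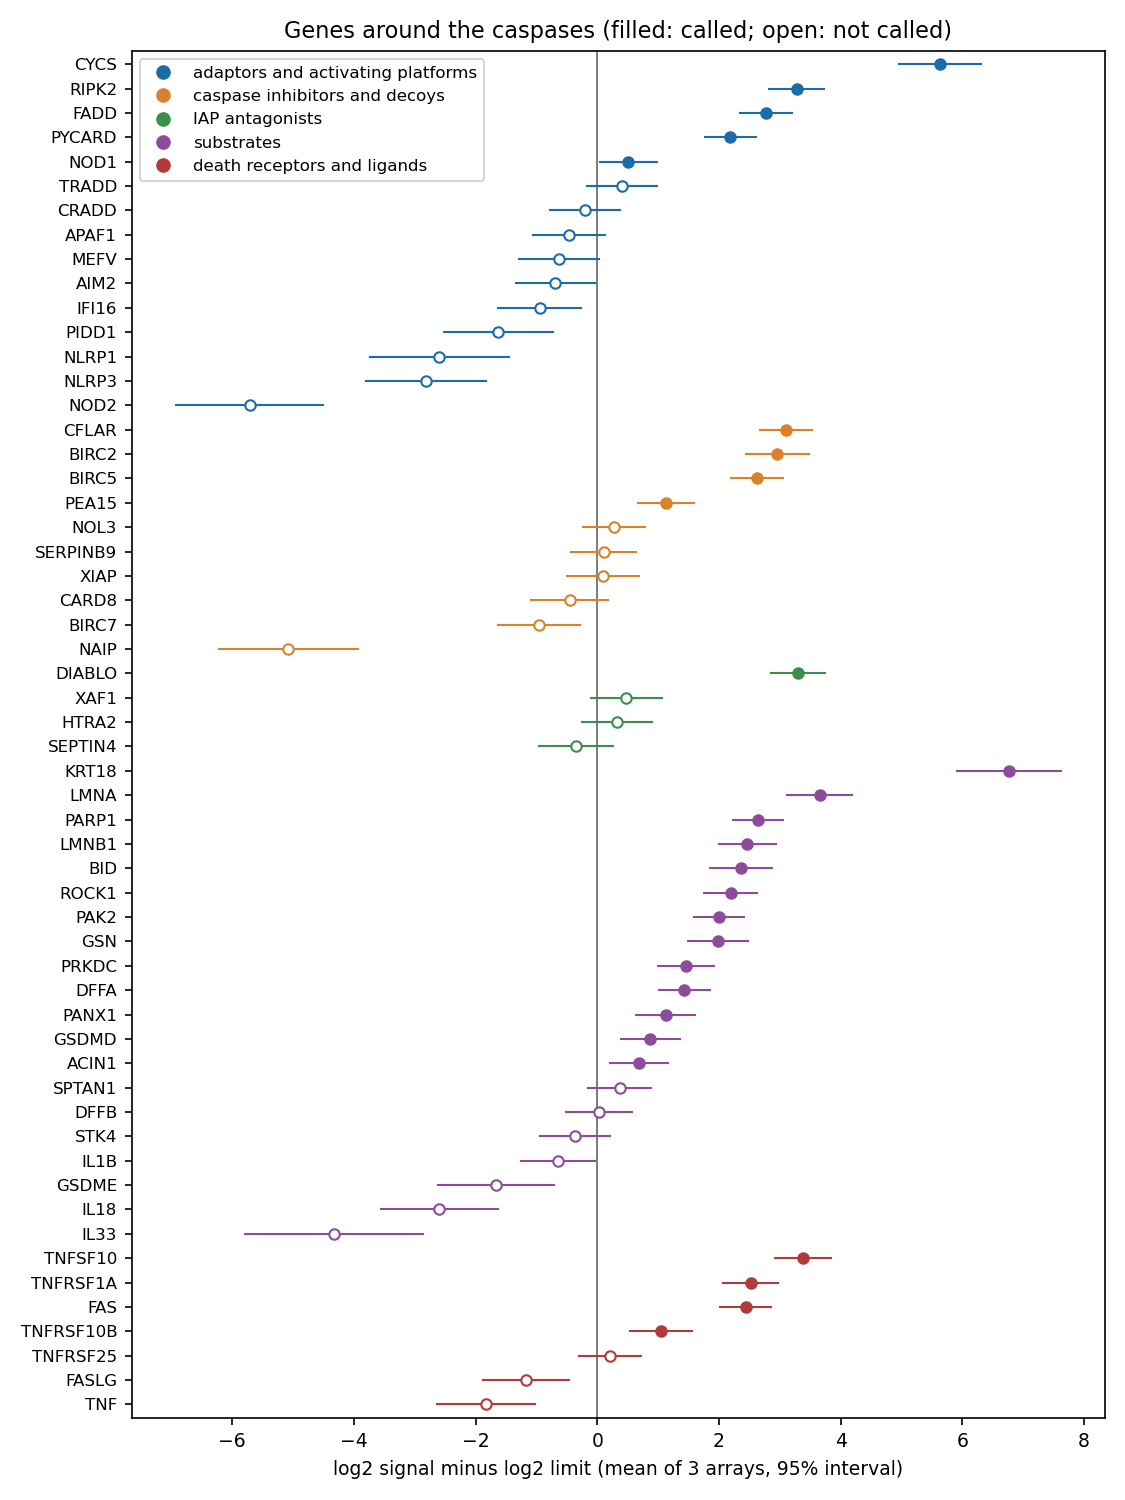
Margin over the gene-level background limit for the 56 measured genes of 5 lists around the caspases (rows, ordered within each list), with 95% intervals from limma; 0 is the limit. Filled points passed the test and open points did not. The adaptors run from CYCS at 5.63 to NOD2 at -5.71, and the substrates from KRT18 at 6.76 to IL33 at -4.33.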

How the data were processed

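Gene expression was measured on Affymetrix arrays in 3 cultures of 1 group. What was deposited is an intensity for each probe set, on a linear scale; Affymetrix Expression Console 1.1 and MAS5 are named in the submitters' processing notes, and the trimmed mean of each array was 500.0 (2% cut at each end), so arrays were scaled before deposit. The scaling target, background step and presence calls are not given in the sources used here. Gene names came from the platform annotation (19065 probe sets with 1 symbol and values, 1043 with several), updated through RefSeq (GRCh38.p14). The replicates are separate samples by label. The p-values rest on the spread of the margin between them, drawn by limma towards the spread of features with a like mean signal. Of 22283 rows, 6 were empty and dropped, and 62 values, 15 at the start and 47 at the end, stayed unnamed.

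Signals were taken to log2 without an offset. Log2 signal minus the array's limit was tested with limma 3.58.1 under R 4.3.3 (intercept only, variance trend on mean signal), one-sided, adjusted by Benjamini-Hochberg over everything tested. The p-values and intervals hold the change of the limit between arrays, but not the error from the choice of background genes. The fit was tested on simulated data. The caspases, the lists and the 28 partner genes and 7 markers to be named, whatever their values, were chosen with earlier results of these data known; 5 of the 28 were not analysed here. NLRP1, NLRP3, AIM2, MEFV, NOD2, IL33, FASLG, TNF, TNFRSF25, CDX1, CDX2 and COL1A1 fell outside that list and were named after their values were seen. The same holds for TNFSF10 and TNFRSF1A. Promoter windows came from RefSeq tables. Alternatives covered the order of names, scaling, offset, limit, filter, suffixes, probe set summary and replicates.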

Additional observations from a re-analysis of the deposited data

How the results depend on the processing

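Of the 23 caspase probe sets, 23 kept their side of the threshold with quantile normalization and with 32 added before log2. The same held with the dimmest probe sets left out and without replicate 2. The other alternatives run on probe sets moved at least 1 across the threshold. Exceptions were uniform displacement by 487 rows and the suffix filter, which moved none of the 22 and 7 they measured. Margins close to the limit also changed sign in some probe sets that never passed. The margin of 209811_at (CASP2) was -0.07 in the main fit, 0.05 without replicate 2 and 0.31 over the recomputed limit of the suffix filter. For 34449_at of CASP2 it was 0.03 in the main fit, -0.09 without replicate 1 and -0.05 without replicate 3. For 206011_at of CASP1 it was 0.12 in the main fit and -0.03 without replicate 3. Leaving out 1 replicate gave 10 to 12 caspase probe sets, 5 to 7 caspase genes and 1 to 2 IAP antagonists. Over the whole array it gave 6070 to 6862 of 19065 probe sets and 4325 to 4622 of 11963 genes. At gene level CASP10 also lost its call with quantile normalization and without the variance trend. That left 5 caspase genes each time, with 4570 and 4414 genes in all. The median over probe sets changed none of the 8. The cause of these changes was not tested.

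Under the names as deposited, limma called 0 caspase probe sets, 0 caspase genes and 0 genes of each of the 5 lists, with 322 probe sets and 374 genes in all, and 9 caspase probe sets had a range over 1 log2 unit. Unadjusted p was under 0.05 for 0 caspase probe sets, 0 caspase genes and 1 list gene. There the margins of CASP1 were -0.12 (211366_x_at), -0.71 (209970_x_at), -5.28 (211367_s_at) and -5.32 (211368_s_at), that of CASP2 -3.31 (208050_s_at), of CASP4 -0.27 (209310_s_at), of CASP6 -6.36 (209790_s_at) and -4.88 (211464_x_at), of CASP8 -7.44 (207686_s_at) and -3.28 (213373_s_at), of CASP9 -5.22 (210775_x_at) and of CASP10 -3.46 (205467_at). At gene level they were -0.32 for CASP1, -0.47 for CASP4, -5.08 for CASP6, -3.48 for CASP8, -2.84 for CASP9 and -3.66 for CASP10. All these margins were taken from limits recomputed under those names. In replicates 1, 2 and 3 the limits were 3843, 3886 and 2966 for probe sets and 4063, 4121 and 3996 for genes. The margins are thus not on the scale of those in the order used.

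With the limit at the 99th percentile, 6 caspase probe sets, 3827 probe sets and 2759 genes in all and 8 substrates passed, and margins turned to -0.50 (208050_s_at), -0.17 (211464_x_at), -0.10 (210775_x_at) and -0.41 (205467_at), and to -0.26 for CASP9 and -0.57 for CASP10 as genes. A higher limit leaves fewer calls by construction. At the 90th percentile, and with the median over probe sets, 3 IAP antagonists passed. Leaving out _x_at and _s_at probe sets left 7 caspase probe sets and 5 caspase genes, and 1 of each passed. In all, 3347 of 10100 probe sets, 2906 of 8369 genes and 3 of 9 adaptors passed there. The margin of CASP4 as a gene turned to -0.52. The limits were recomputed there and were lower, for genes at 196, 178 and 158 in replicates 1, 2 and 3. No paired analysis was possible because all arrays belong to 1 group. Array number and the choice of background genes limit what could be detected.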
